A study of Mus musculus with 6 samples.

Results

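Genomic imprinting leaves a gene active mainly from the copy inherited from 1 parent. The genes described here are 44 mouse genes that are imprinted in at least some tissues, including the long noncoding RNAs (lncRNAs) Airn and Kcnq1ot1. They were chosen by name and not by a rule on measured values, but with earlier results of these data known. Each lies in an imprinted domain that is shared with other members or stands alone, and each was assigned from textbook knowledge to the parental copy it is mainly expressed from: 20 genes to the paternal copy, 21 to the maternal copy, and 3 (Gnas, Grb10 and Blcap) to either copy depending on the isoform. Of the 44 genes, 42 had at least 1 probe on the array, against 19259 genes that could be named in all. Magel2 and Zdbf2 had no matching probe, so that no signal is given for them. A total of 64 probes carried a RefSeq accession of a member, 31 genes by 1 probe and 11 genes by several. Another 2 probes were tied to Airn by their names in the study's own annotation of changed lncRNAs. That annotation names 1 of them, uc008alb, 2810051F02Rik, taken here as Airn through a gene synonym. As that annotation was made from these samples, the 2 probes are described below but not counted.

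RNA from whole testis of male C57/BL6 mice, 6 days (neonatal) or 8 weeks (adult) after birth, was measured on 6 arrays, 3 per age. The labels name no engineered allele and no treatment. The mice of each age were divided into 3 groups, and each group gave 1 array, so an array averages over animals. The array reports the sum of both parental copies and does not tell them apart, so none of the values below measures imprinting itself.

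Imprints are methylation marks set in the germ line, and in the male germ line the old marks have been erased and the paternal ones laid down well before sperm form. In the soma a differentially methylated region controls each domain, often through an lncRNA transcribed from the paternal copy, as Airn does at Igf2r and Kcnq1ot1 at Kcnq1. Many paternally expressed genes promote fetal and early postnatal growth, and several maternally expressed ones, such as Cdkn1c, Phlda2 and Grb10, restrain it.

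Values are normalized signals, the log2 of a probe's background-subtracted signal over the 75th percentile of its array, with a floor at -7.22. That percentile lay between 1385 and 2947 intensity units on the neonatal arrays and between 747.3 and 1856 on the adult arrays, and between 65.9% and 69.8% of spots were well above background. Replicate 3 of both ages was scanned apart from the other 4 arrays, taken here as a second slide, and 30.7% and 25.4% of its spots carried an outlier flag, against 6.11% to 10.7% elsewhere. Cell makeup differed widely between the ages. All 5 spermatid markers rose, their summed scaled signal going from 0.403 to 0.501 on the neonatal arrays to between 999.9 and 1373 on the adult arrays. With outlier-flagged spots kept, 3 of 5 spermatocyte markers rose (10.2 to 16.4 against 73.7 to 87.7), while all 8 Sertoli cell markers with a probe fell (52.7 to 78.1 against 12 to 18.1), as did 4 of 5 spermatogonial (66.3 to 80.7 against 14.5 to 18.0, the other 1 rising), 3 of 4 endothelial (6.59 to 13 against 1.22 to 2.32) and 2 of 3 peritubular myoid markers (21.4 to 26.7 against 4.26 to 6.48). Of 7 Leydig cell markers 4 rose and 1 fell (25.5 to 28.6 against 63.0 to 81.4), and the summed signal of 3 macrophage markers lay between 5.31 and 6.43 on neonatal and between 3.70 and 5.76 on adult arrays. Cnn1 and Gfra1 never stood well above background, and Rhox5 and Cd68 had no matching probe. The part of this change in cell makeup in the results below was not tested. In whole tissue, fewer cells of a type and less RNA per cell cannot be told apart.

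Member genes fell from the neonatal to the adult testis more often than they rose. A gene was called where a probe differed by at least 2-fold with a limma p-value that, adjusted by Benjamini-Hochberg over all 24514 tested probes, did not exceed 0.05. Of 31 member genes that could be tested, 17 fell (54.8%) and 5 rose (16.1%), while over all 13095 tested genes 36.3% fell and 23.9% rose. At the threshold of at least 5-fold, which is the one of the study, 9 member genes fell (29.0%) and 2 rose (6.45%), against 13.8% and 13.1% of all genes. The fits of Nnat, Airn (NR_002853 and uc008ala), Ascl2, Peg3, Peg12, Sgce, Dcn, Ddc, Commd1, Copg2, Blcap and Tssc4 rest on the arrays of replicates 1 and 2, since a spot of replicate 3 carried an outlier flag, and they are marked by 2 pairs below. Values printed by array include the spots that a fit left out. The other member fits rest on 3 pairs. Fits of genes and lncRNAs outside the member list rest on 2 or 3 pairs and are not marked. Another 9 members were left without a test because too many of their spots carried outlier flags. With these spots kept, 24 of 40 members fell (60.0%) and 7 rose (17.5%), against 38.7% and 23.6% of 16470 genes, and at 5-fold 13 fell (32.5%) and 4 rose, against 15.6% and 13.4%. Without replicate 1 or without replicate 2, only 19 members could be tested, of which 9 fell in each case and 4 and 3 rose. Of the 60 member probes that stood well above background on some array, 44 (73.3%) had neonatal and adult values that did not overlap, close to the 71.5% of all such probes.

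**Figure D1:**
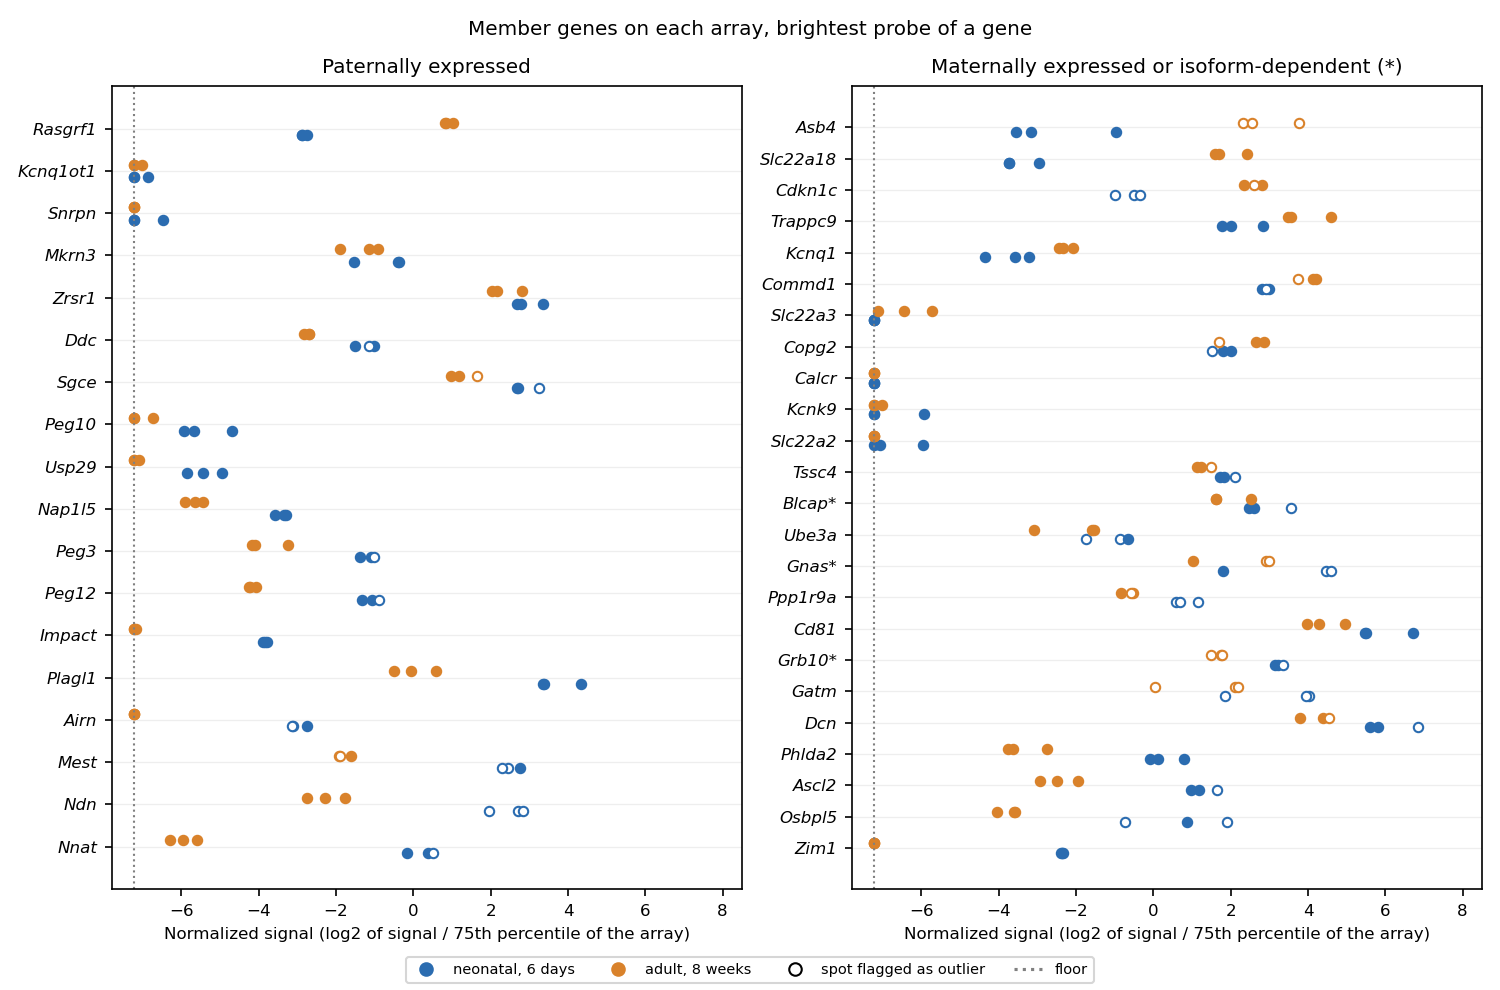
Normalized signal of the brightest probe of each of the 42 genes on the 3 neonatal (blue) and 3 adult (orange) arrays, sorted by the difference between the ages from highest in adult (top) to lowest; open circles are outlier-flagged spots and the dotted line is the floor at -7.22. Among paternally expressed genes (left) Rasgrf1 lies to the right in adult testis and most others to the left; among maternally expressed genes (right) Asb4, Slc22a18 and Cdkn1c lie to the right and genes such as Zim1 and Osbpl5 to the left.

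The paternally expressed members leaned to one side. Of 15 tested, 11 fell (Peg3, Usp29, Airn, Plagl1, Ddc, Peg10, Sgce, Nnat, Peg12, Impact and Nap1l5), 1 rose (Rasgrf1) and 3 had no call (Snrpn, Mkrn3 and Zrsr1). Of 14 maternally expressed members tested, 5 fell (Zim1, Phlda2, Ascl2, Cd81 and Dcn), 4 rose (Slc22a18, Kcnq1, Commd1 and Trappc9) and 5 had no call (Copg2, Tssc4, Slc22a2, Slc22a3 and Kcnk9). Falls made up 73.3% of the paternal and 35.7% of the maternal group, against 36.3% of all tested genes. Rises made up 6.67% and 28.6%, against 23.9%. The maternal shares thus lay near those of all genes. The median log2 fold change, adult over neonatal, was -1.77 over the 15 paternally and -0.41 over the 14 maternally expressed genes, against -0.36 over all tested genes. With outlier-flagged spots kept these medians were -2.26 over 17 genes, -0.54 over 20 genes and -0.46. The paternal and maternal groups were not tested against each other, since the members of a domain are not independent, and the maternal median turned to 0.11 without replicate 1.

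Nnat, which encodes the proteolipid neuronatin and sits in an intron of Blcap, had the largest fall among tested members. Its probe for NM_010923 read -0.17, 0.38 and 0.51 in neonatal testis and, taking the arrays here and below in the order of their replicate numbers, -5.60, -6.29 and -5.94 in adult testis. All adult arrays lay far below all neonatal ones, and the log2 fold change was -6.05 ± 0.38 (SE, 2 pairs), or 66.1-fold (adjusted p = 0.00142). The gene was well above background on 2 of the 3 adult arrays. The methods' paired t-test, run here on the same 2 pairs, did not call it. With all spots kept the 3 pairs differed by -5.43, -6.67 and -6.46. The second Nnat probe, NM_180960, had outlier flags on all neonatal arrays and read -0.51, 0.32 and 0.28 against -6.01, -7.14 and -7.22, a log2 fold change of -6.82 ± 0.47 (adjusted p = 0.000326) with these spots kept. Its host Blcap read 2.60, 2.48 and 3.57 in neonatal and 1.62, 1.63 and 2.52 in adult testis. The Blcap values of the ages overlapped, and the log2 fold change of -0.92 ± 0.14 (2 pairs, adjusted p = 0.0114) was under 2-fold. It passed 2-fold with a shift to the median (-1.17), with the authors' log2 values (-1.22), with quantile normalization (-1.13) and with the normexp background correction (-1.03).

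Plagl1, a zinc finger transcription factor that restrains cell division, read 3.39, 3.36 and 4.34 in neonatal and -0.51, -0.06 and 0.59 in adult testis. The lowest neonatal value lay above the highest adult value, and the fall was 12.9-fold (log2 fold change -3.69 ± 0.14, adjusted p = 0.000169). Impact, a regulator of the kinase Gcn2, read -3.78, -3.90 and -3.84 in neonatal testis and was not well above background on any adult array, so that it was at least 8.01-fold lower in adult (adjusted p = 0.000132). Nap1l5, a retrogene related to nucleosome assembly proteins, read -3.57, -3.30 and -3.35 against -5.65, -5.90 and -5.43. Its ages did not overlap either, and it fell 4.78-fold (-2.26 ± 0.16, adjusted p = 0.000603).

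In the Peg3 domain all 3 members fell, whichever parental copy they are expressed from. Peg3, a zinc finger protein of growth and maternal behaviour, read -1.09, -1.37 and -1.03 in neonatal and -4.18, -4.09 and -3.25 in adult testis, a 7.49-fold fall (-2.91 ± 0.17, 2 pairs, adjusted p = 0.00125). Usp29, a ubiquitin-specific peptidase transcribed away from Peg3, read -5.85, -5.43 and -4.95 and was not well above background in adult testis, at least 2.69-fold lower (adjusted p = 0.00165). The maternally expressed Zim1 read -2.33, -2.36 and -2.39 and was at the floor on all adult arrays, at least 22.3-fold lower (adjusted p = 9.07e-05). That adjusted p belongs to the fitted change and not to the bound, and adult values at the floor show no spread between arrays. None of the 3 genes had overlapping ages. With the normexp background correction the call of Usp29 was lost (log2 fold change -0.47).

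On chromosome 7 the Snrpn-Ube3a domain was led by Ndn and Peg12. Ndn, the growth suppressor necdin, had outlier flags on all neonatal arrays and was therefore tested with those spots kept. It read 2.70, 2.85 and 1.96 in neonatal and -1.76, -2.28 and -2.75 in adult testis, a 27.2-fold fall (-4.76 ± 0.17, adjusted p = 6.9e-05). Peg12, a Frat-family protein of the Wnt pathway, read -1.32, -1.07 and -0.88 against -4.26, -4.23 and -4.06, an 8.28-fold fall (-3.05 ± 0.15, 2 pairs, adjusted p = 0.000914). Neither gene had overlapping ages. Mkrn3, a RING finger protein, read -0.38, -0.39 and -1.52 against -1.15, -0.90 and -1.89. The Mkrn3 values overlapped and the difference of -0.55 ± 0.13 (adjusted p = 0.019) was under 2-fold. The 3 Snrpn probes were each well above background on 1 neonatal array and on no adult array and gave no call. The maternally expressed Ube3a, an E3 ubiquitin ligase, had flagged spots on both probes, and with these kept NM_011668 fell 2.69-fold (-1.43 ± 0.19, adjusted p = 0.00263) while NM_001033962 differed 1.97-fold (-0.98 ± 0.17, adjusted p = 0.00632).

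Mest, a hydrolase-fold protein of the growth-promoting group, was tested with flagged spots kept. It read 2.45, 2.75 and 2.30 in neonatal and -1.91, -1.61 and -1.90 in adult testis, a 19.8-fold fall (-4.31 ± 0.11, adjusted p = 3.14e-05), with no overlap. Its neighbour Copg2, a subunit of the coatomer of Golgi vesicles, read 2.00, 1.81 and 1.53 against 2.85, 2.64 and 1.70 and differed the other way, by 0.84 ± 0.14 on the log2 scale (2 pairs, adjusted p = 0.0131). That is under 2-fold, and the Copg2 ages overlapped.

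Promoters of some members with large changes are shown because a 6-base motif, TGCCGC, is known to be bound in its methylated form by ZFP57, a zinc finger protein that keeps imprints. Windows run from 250 bases before to 50 after a RefSeq transcription start (GRCm38.p6) and are written 5′ to 3′ on the gene's strand. Capitals mark TGCCGC or its complement read on the other strand, GCGGCA, which are the same motif on the 2 strands and do not overlap each other here. The RefSeq table held 53 windows used here for 36 of the members, Magel2 and Zdbf2 included, with a median of 16 CpG dinucleotides per window against 7 over all 32851 windows. The motif was in 14 member windows (26.4%) and in 11.6% of all windows. Of the 24 windows of paternally expressed genes 7 held it (29.2%), and of the 22 windows of maternally expressed genes 6 held it (27.3%). The motif itself contains a CpG, and whether its higher share in member windows goes beyond their higher CpG number was not tested. The 14 windows belong to 13 genes, since 2 of the 3 Mest windows hold the motif and start 3 bases apart, the first of which is shown. The third Mest window has no match. Of the 13 genes, Nnat, Plagl1, Nap1l5 and Zim1 fell, as did Mest, Osbpl5 and Grb10 with flagged spots kept, and Commd1 rose. Copg2, Slc22a2 and Snrpn had no call, Calcr was at the floor and Zdbf2 had no probe, so the motif was in windows of genes with each outcome. The windows shown of Mest and Nap1l5 held it 2 times and those of Nnat and Plagl1 1 time.
Nnat, chr2:157559828-157560127: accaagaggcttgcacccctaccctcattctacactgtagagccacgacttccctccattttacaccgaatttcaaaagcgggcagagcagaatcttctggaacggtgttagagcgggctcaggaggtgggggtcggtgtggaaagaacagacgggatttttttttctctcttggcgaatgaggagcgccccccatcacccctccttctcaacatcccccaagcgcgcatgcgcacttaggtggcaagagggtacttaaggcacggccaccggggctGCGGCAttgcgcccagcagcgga
Mest, chr6:30737800-30738099: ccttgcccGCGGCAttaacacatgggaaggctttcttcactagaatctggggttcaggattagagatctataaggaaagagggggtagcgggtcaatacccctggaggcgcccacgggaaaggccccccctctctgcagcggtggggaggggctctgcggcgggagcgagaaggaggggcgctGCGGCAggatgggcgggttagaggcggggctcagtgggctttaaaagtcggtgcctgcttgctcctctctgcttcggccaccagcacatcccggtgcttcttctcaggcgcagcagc
Nap1l5, chr6:58907077-58907376: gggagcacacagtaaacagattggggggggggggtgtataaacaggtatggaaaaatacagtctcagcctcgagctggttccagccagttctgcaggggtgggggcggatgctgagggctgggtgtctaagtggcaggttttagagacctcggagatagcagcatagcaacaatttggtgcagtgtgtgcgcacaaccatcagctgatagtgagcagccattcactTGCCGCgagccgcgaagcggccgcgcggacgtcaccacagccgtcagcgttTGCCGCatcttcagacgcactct
Plagl1, chr10:13090582-13090881: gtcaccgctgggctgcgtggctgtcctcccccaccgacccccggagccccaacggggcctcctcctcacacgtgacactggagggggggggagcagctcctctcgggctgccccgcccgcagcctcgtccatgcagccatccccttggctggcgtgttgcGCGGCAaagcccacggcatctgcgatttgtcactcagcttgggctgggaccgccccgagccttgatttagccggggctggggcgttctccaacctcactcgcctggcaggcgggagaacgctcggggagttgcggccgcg
Peg3, chr7:6730370-6730669: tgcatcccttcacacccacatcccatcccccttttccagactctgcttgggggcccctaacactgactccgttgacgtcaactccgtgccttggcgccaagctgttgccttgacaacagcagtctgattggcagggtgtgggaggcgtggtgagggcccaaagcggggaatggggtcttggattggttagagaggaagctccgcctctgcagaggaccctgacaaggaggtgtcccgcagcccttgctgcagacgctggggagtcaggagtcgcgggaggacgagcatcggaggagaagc
Slc22a18, chr7:143473539-143473838: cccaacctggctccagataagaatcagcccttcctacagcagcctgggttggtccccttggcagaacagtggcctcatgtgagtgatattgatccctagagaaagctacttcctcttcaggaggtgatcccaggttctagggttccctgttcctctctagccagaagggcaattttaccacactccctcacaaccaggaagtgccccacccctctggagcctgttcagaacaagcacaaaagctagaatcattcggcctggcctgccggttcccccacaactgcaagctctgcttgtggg
The Peg3 window shares 263 of its 300 bases with that of Usp29 on the other strand, and the motif was not found in it. The window of Slc22a18, the member with the largest rise in the test, holds 2 CpG dinucleotides and no match, against 17 CpG dinucleotides in the windows shown for Nnat, Mest and Nap1l5, 26 for Plagl1 and 13 for Peg3. The Mest window without a match holds 8. A match describes letters only, and the arrays do not measure methylation or binding.

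Among the 5 members of the Peg10-Sgce domain with a probe, 2 paternally expressed ones fell. Sgce, the dystrophin-associated epsilon-sarcoglycan, had 4 tested probes that fell between 3.04-fold and 3.51-fold. Of these NM_001130191 read 2.72, 2.78 and 3.15 in neonatal and 1.02, 0.85 and 1.47 in adult testis (-1.81 ± 0.15, 2 pairs, adjusted p = 0.00261), with no overlap. NM_001130190 read 2.70, 2.82 and 3.03 against 0.97, 0.95 and 1.34, also without overlap (-1.80 ± 0.14, 2 pairs, adjusted p = 0.00237). Peg10, a retrotransposon-derived gene needed in the placenta, was well above background on 2 neonatal arrays and no adult array, and was at least 2.65-fold lower in adult (adjusted p = 0.00209), a call lost with the normexp background correction (log2 fold change -0.27). The maternally expressed members went both ways with flagged spots kept. Asb4, an ankyrin repeat protein of ubiquitin ligases, read -3.17, -3.57 and -0.97 in neonatal and 2.32, 2.56 and 3.76 in adult testis, a 43.7-fold rise (5.45 ± 0.30, adjusted p = 0.000179) in which all adult spots carried outlier flags. Ppp1r9a, the actin-binding neurabin, fell 2.77-fold (-1.47 ± 0.17, adjusted p = 0.00144). Both probes of Calcr, the calcitonin receptor, were at the floor on all arrays.

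The Kcnq1 domain held the largest opposite changes among neighbours. Slc22a18, of the organic cation transporter family, rose in both probes: NM_001042760 read -3.57, -3.65 and -3.30 in neonatal and 1.72, 1.73 and 2.24 in adult testis (5.40 ± 0.11, adjusted p = 9.11e-05), and NM_008767 read -3.74, -3.74 and -2.97 against 1.60, 1.69 and 2.42 (5.39 ± 0.10, adjusted p = 8.49e-05). These are rises of 42.4-fold and 41.8-fold with no overlap. Phlda2, a pleckstrin homology protein that limits placental growth and the next gene along the chromosome, read -0.08, 0.12 and 0.79 against -3.62, -3.75 and -2.75. It fell 12.6-fold (-3.65 ± 0.12, adjusted p = 0.00015), again without overlap.

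Cdkn1c, the cell cycle inhibitor p57, had outlier flags on most spots of its 2 probes and rose with these kept. NM_009876 read -0.50, -0.34 and -0.99 in neonatal and 2.82, 2.34 and 2.59 in adult testis (9.13-fold, 3.19 ± 0.22, adjusted p = 0.00031), and NM_001161624 read -1.14, -0.50 and -2.12 against 2.59, 2.18 and 1.99 (11.4-fold, 3.51 ± 0.31, adjusted p = 0.000697). Kcnq1, a potassium channel subunit, read -3.59, -4.37 and -3.23 against -2.33, -2.45 and -2.08 and rose 2.71-fold (1.44 ± 0.20, adjusted p = 0.00356). The adult values of both genes lay above all neonatal values, and with the normexp background correction Kcnq1 was just under 2-fold (0.99).

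At the far ends of the Kcnq1 domain genes fell. Ascl2, a basic helix-loop-helix factor of the trophoblast, read 0.97, 1.19 and 1.65 in neonatal and -2.94, -2.49 and -1.95 in adult testis, a 13.9-fold fall (-3.80 ± 0.15, 2 pairs, adjusted p = 0.000611). Cd81, a tetraspanin, fell 2.81-fold (-1.49 ± 0.15, adjusted p = 0.00152). Its call was lost in fits that left out the replicate block together with adult replicate 1 (-1.27) or adult replicate 2 (-1.43). Osbpl5, an oxysterol-binding protein relative, was tested with flagged spots kept, and its neonatal values of 0.87, -0.73 and 1.90 were more scattered than its adult values of -4.04, -3.57 and -3.60 (21.4-fold, -4.42 ± 0.57, adjusted p = 0.00219). None of the 3 genes had overlapping ages. Tssc4 read 1.73, 1.84 and 2.10 against 1.23, 1.13 and 1.49 with NM_020285, and its 3 probes lay between 1.5-fold and 1.53-fold lower in adult testis (2 pairs, adjusted p between 0.0362 and 0.0373), under the 2-fold threshold, and Kcnq1ot1 had no signal well above background.

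**Figure D2:**
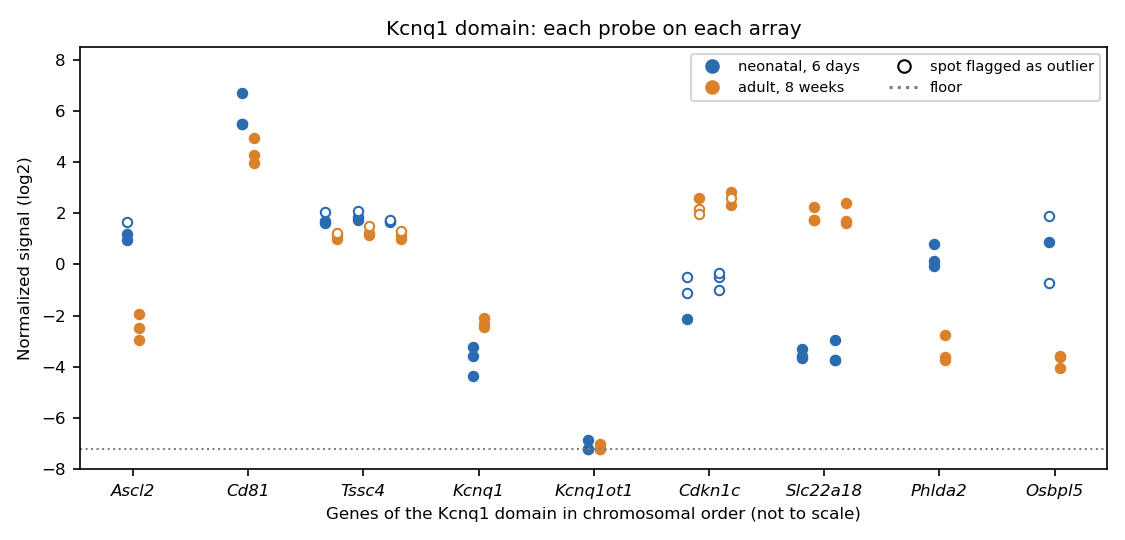
Normalized signal of every probe of the 9 members of the Kcnq1 domain on the 3 neonatal (blue) and 3 adult (orange) arrays, in the order of the genes along chromosome 7 and not to scale; open circles are outlier-flagged spots and the dotted line is the floor at -7.22. Kcnq1, Cdkn1c and Slc22a18 lie higher in adult testis, Ascl2, Cd81, Phlda2 and Osbpl5 lower, and Kcnq1ot1 lies at or near the floor at both ages.

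Rasgrf1, a Ras exchange factor, was the paternally expressed member that rose. Its probe for NM_011245 read -2.88, -2.87 and -2.75 in neonatal and 0.86, 0.82 and 1.03 in adult testis, a 13.3-fold rise without overlap (3.74 ± 0.10, adjusted p = 0.000123). Its second probe, NM_001039655, read -4.57, -6.78 and -4.13 against -5.87, -6.27 and -5.17 and showed no call (-0.61 ± 0.41, adjusted p = 0.24). The 2 probes of the gene therefore disagree. Without replicate 2 the second probe passed as a fall (-1.17).

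Smaller rises were seen for 2 maternally expressed members. Trappc9, a subunit of a vesicle tethering complex, read 1.81, 1.77 and 2.67 in neonatal and 3.54, 3.44 and 4.53 in adult testis with NM_029640, a 3.37-fold rise (1.75 ± 0.11, adjusted p = 0.000427), and 2.01, 1.77 and 2.82 against 3.49, 3.56 and 4.60 with NM_180662 (3.22-fold, 1.68 ± 0.12, adjusted p = 0.000641). Commd1, a protein of copper and sodium transport that hosts the retrogene Zrsr1 in an intron, read 2.80, 2.98 and 2.92 against 4.21, 4.13 and 3.74 (2.43-fold, 1.28 ± 0.16, 2 pairs, adjusted p = 0.00633). The ages did not overlap in either gene. Commd1 was under 2-fold by quantile normalization (0.80), the authors' log2 values (0.87) and the normexp background correction (0.77). The NM_180662 call was lost in fits that left out the replicate block together with neonatal replicate 1 (1.59) or 2 (1.47). Zrsr1 itself, a paternally expressed relative of a splicing factor, was 1.52-fold lower in adult testis with overlapping ages (-0.60 ± 0.10, adjusted p = 0.00682).

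The remaining members differed less or were dim. Dcn, the matrix proteoglycan decorin, read 5.62, 5.82 and 6.84 in neonatal and 3.79, 4.40 and 4.55 in adult testis and fell 3.09-fold (-1.63 ± 0.18, 2 pairs, adjusted p = 0.00501), and Ddc, the decarboxylase that makes dopamine, read -1.50, -1.02 and -1.15 against -2.70, -2.70 and -2.83 and fell 2.71-fold (-1.44 ± 0.20, 2 pairs, adjusted p = 0.00816). Neither gene had overlapping ages. Both calls were lost when dim probes were not filtered out. With flagged spots kept Grb10, an adaptor that dampens insulin and growth factor receptors, fell 2.96-fold (-1.57 ± 0.12, adjusted p = 0.000403), and Gatm, an enzyme of creatine synthesis, fell 3.55-fold (-1.83 ± 0.11, adjusted p = 0.000246) although its ages overlapped, a call lost without the replicate block. The organic cation transporters Slc22a2 and Slc22a3 and the potassium channel Kcnk9 were each well above background on at most 2 arrays of 1 age and on none of the other, and had no call. Slc22a3 passed as a rise with no floor (log2 fold change 2.51), a floor of 5 before scaling (2.20), quantile normalization (1.64) and the authors' log2 values (1.94). It also passed without both the replicate block and adult replicate 3 (1.14). Slc22a2 passed as a fall with no floor (-1.10), quantile normalization (-1.42) and the authors' log2 values (-1.08).

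Gnas, which encodes the alpha subunit of the stimulatory G protein and gives rise to imprinted isoforms from several promoters, had 8 probes. The 1 that was tested without flagged spots, NM_019690, read -3.82, -3.73 and -3.64 in neonatal and -5.15, -5.52 and -4.98 in adult testis and fell 2.81-fold (-1.49 ± 0.14, adjusted p = 0.00136), with no overlap. Another 6 probes were bright and carried outlier flags on the arrays of replicates 1 and 2, and with flagged spots kept they fell between 2.45-fold and 6.18-fold. On 5 of them replicate 3 lay below replicates 1 and 2 at both ages, and on NM_201616 at the neonatal age. NM_010309, for example, read 4.47, 4.31 and 2.06 against 2.91, 2.76 and 0.61, so that the ages overlapped while each adult array lay below the neonatal array of its number. Without the replicate block 4 of the 6 had no call, and calls were also lost for NM_022000 without replicate 1 (-1.34) or 2 (-1.34), for NR_003258 without replicate 1 (-1.17) and for NM_201616 without replicate 2 (-2.77). NM_201617 was at the floor on all arrays.

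**Figure D3:**
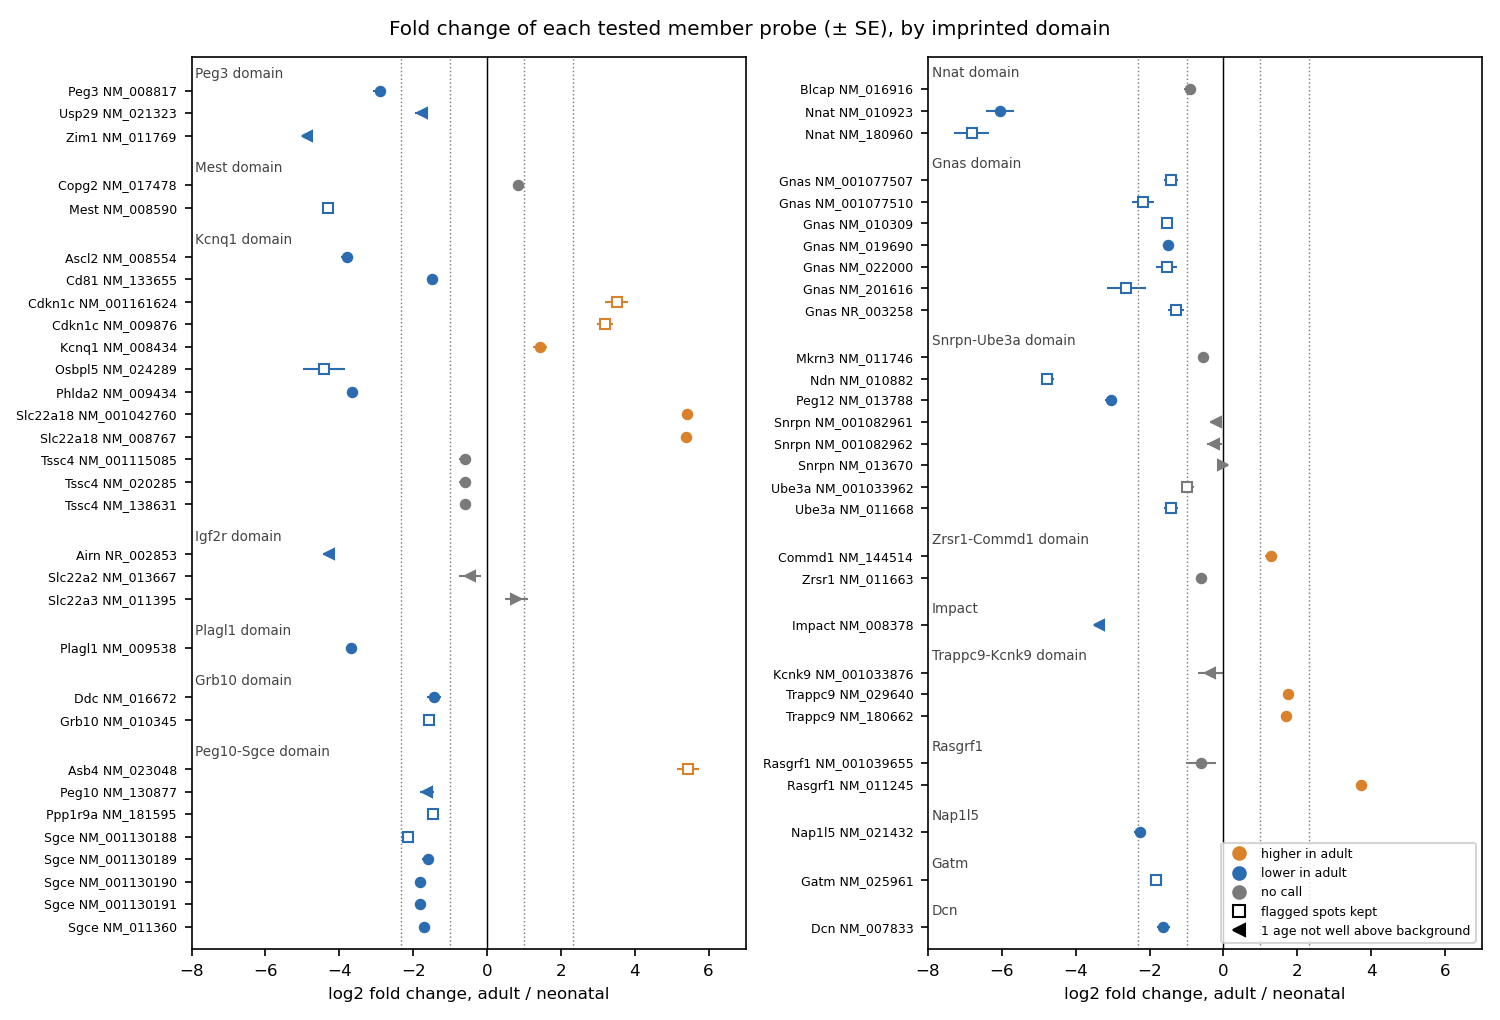
Log2 fold change, adult over neonatal, of each tested member probe with its SE, grouped by imprinted domain; circles are probes tested without outlier-flagged spots, open squares probes tested with them, triangles fitted values of probes not well above background at 1 age, and dotted lines mark 2-fold and 5-fold. Neighbours differ in direction in the Kcnq1 domain, where Slc22a18 reached 5.40 and Phlda2 -3.65, and in the Peg3 domain all 3 genes lie to the left.

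The imprinted lncRNA Airn, transcribed from the paternal copy against Igf2r, fell. Its RefSeq probe, NR_002853, read -3.12, -2.76 and -3.14 in neonatal testis and was at the floor on all adult arrays. With all spots kept it was at least 14.2-fold lower, while the limma fit rests on 2 pairs (adjusted p = 0.000604). The 2 probes tied to Airn by their names in the study's annotation were well above background on all 6 arrays. Since that annotation lists lncRNAs found changed in these samples, the values of these 2 probes add no support for the direction. Of these, uc008ala read -1.13, -0.80 and -1.11 against -5.05, -4.74 and -4.86 (15.3-fold, 2 pairs), and uc008alb read -2.86, -2.52 and -2.67 against -5.27, -5.61 and -6.26 (8.17-fold). No adult value of the 3 probes reached a neonatal one. Kcnq1ot1, the paternal lncRNA of the Kcnq1 domain, read -7.22, -7.22 and -6.87 against -7.22, -7.22 and -7.02, never well above background, so no fold is given. The cDNA was primed with oligo dT, and the sources used here do not say whether the labelling kept strand.

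Further lncRNAs are placed by the study at member loci, in a list that holds only those it found changed, so their values are a description with no support for a direction. At Copg2, beside Mest, AF177020 and AK014219 lie in an intron in antisense orientation and were 14.1-fold and 12.9-fold lower in adult testis. AK014219 read -1.43, -1.10 and -0.26 against -4.85, -4.86 and -4.15. AK015119, which starts beside Copg2 in the other direction, had no neonatal spot well above background and read 0.05, -0.06 and 0.17 in adult testis, at least 145.2-fold higher. Neighbouring lncRNAs of 1 gene thus lay on opposite sides.

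Antisense to an intron of Kcnq1, AK016851 was near the floor in neonatal testis, at -7.22, -7.18 and -7.22, and read 0.87, 0.51 and 0.80 in adult testis. Antisense to exons of Ddc, AK006690 was 40.3-fold higher in adult testis, while Ddc itself fell. Between genes near Peg10 and Ppp1r9a, AK076963 was at the floor on all neonatal arrays and read 2.28, 2.54 and 3.21 in adult testis, at least 893.5-fold higher. Near Rasgrf1, AK006067, AK015891 and AK030170 had no neonatal signal well above background, and in adult testis they exceeded that limit by at least 59.3-fold, at least 21.1-fold and at least 173.8-fold. Lower in adult testis were AK135255 in an intron of Grb10 (at least 8.43-fold), AK017423 in an intron of Gnas (at least 2.72-fold) and AK021075, antisense in an intron of Slc22a3 (at least 4.52-fold). Antisense in introns of Igf2r, AK012942 and AK051797 were 11.7-fold and 34.1-fold lower, the latter with flagged spots kept. Both lie on the strand of Airn and within the stretch the study gives for it, so by position they cannot be told apart from Airn.

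**Figure D4:**
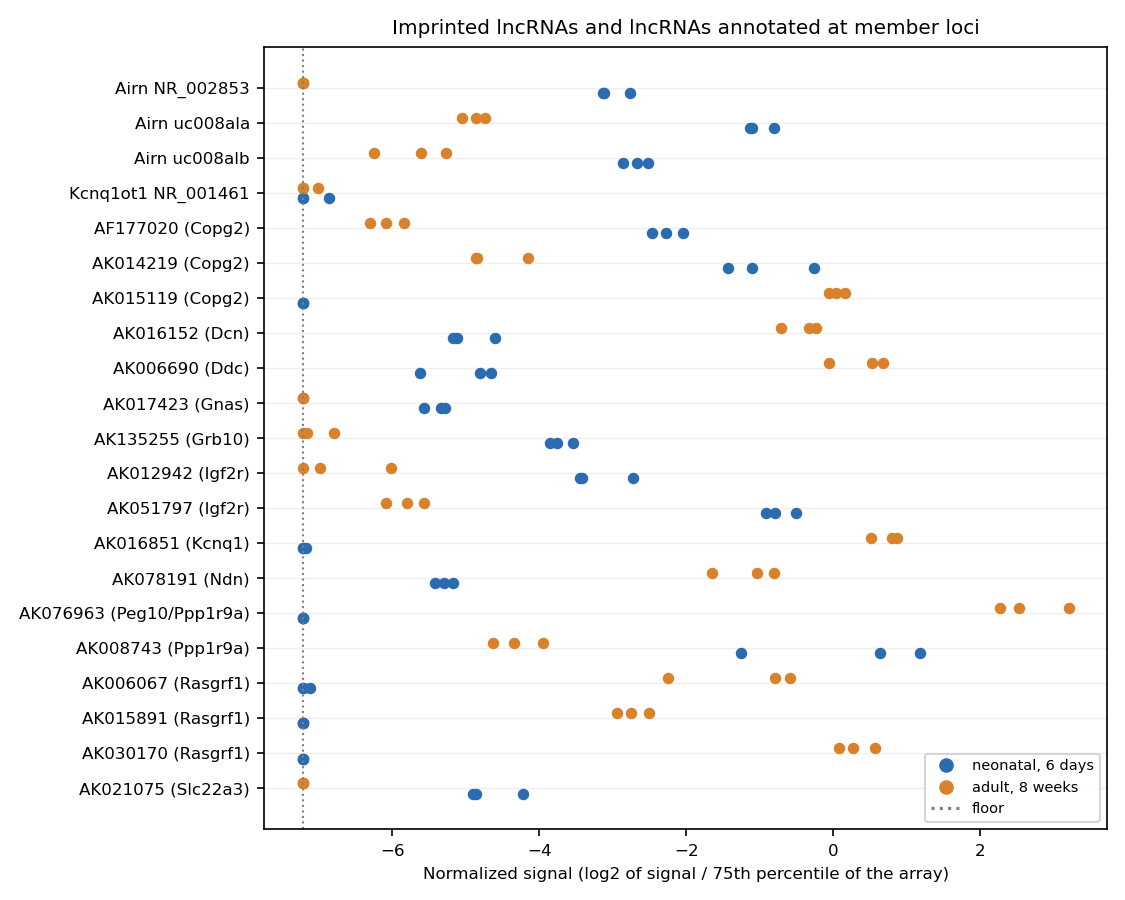
Normalized signal of the Airn and Kcnq1ot1 probes and of the lncRNAs that the study's annotation places at member loci (or, for Airn, at Igf2r) on the 3 neonatal (blue) and 3 adult (orange) arrays; the associated gene is in parentheses and the dotted line is the floor at -7.22. The Airn probes and the lncRNAs at Igf2r lie lower in adult testis, the lncRNAs near Rasgrf1 higher, and Kcnq1ot1 lies at or near the floor.

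Of 15 genes whose products set or keep imprints, 14 were tested, 7 fell (50%) and 1 rose (7.14%), against 36.3% and 23.9% of all tested genes. Dnmt3a, the de novo DNA methyltransferase, fell in both probes (-3.77 ± 0.15 and -4.03 ± 0.14 on the log2 scale), and Dppa3, which guards maternal methylation in the zygote, fell by 3.89 on the same scale. Dnmt3l, the cofactor of Dnmt3a, rose in both probes (4.01 ± 0.21 and 3.83 ± 0.18). Falls between 1.48 and 2.16 on the log2 scale were seen for Ctcf, its testis paralogue Ctcfl, the maintenance methyltransferase Dnmt1, Smchd1 and the helicase Hells. Zfp57 was well above background on 1 adult array and on no neonatal array, and Zfp445, Trim28, Uhrf1, Eed and Ehmt2 had no call. Without replicate 1 or replicate 2, where fewer probes could be tested, 2 factors fell. Of 25 further imprinted genes outside the member list, 16 were tested, 7 fell (43.8%) and 2 rose (12.5%), where the fall is near the 36.3% of all tested genes and the rise below their 23.9%. Cdh15, a cadherin, had the largest log2 fold change among them (-4.06 ± 0.16), followed by Inpp5f (-2.90 ± 0.15) and Tfpi2 (-2.78 ± 0.17), and the risers were Pon2 (1.43 ± 0.16) and Tspan32 (1.34 to 1.44 over 4 probes). Peg13, the paternal lncRNA in the Trappc9-Kcnk9 domain, read -0.38, -0.36 and 0.40 against -0.15, -0.35 and 0.76 and had no call (0.20 ± 0.12, adjusted p = 0.2).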

How the data were processed

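RNA from neonatal and adult testis was hybridised in 1 colour to 6 lncRNA and mRNA arrays, grouped by the labels. The scanner files that the authors deposited, read with Agilent Feature Extraction 10.5.1.1 per the submitters' notes, hold each spot's intensity, background-subtracted and not normalized between arrays. The authors also deposited log2 values, used here as an alternative. Spots of a probe were averaged, outlier-flagged spots left out, each array scaled to its 75th percentile, a common floor set (the highest scaled value of a signal of 5) and the log2 taken. A probe had to stand well above background on 1 array or more and to have 2 complete replicate pairs or more. The fit was made in R 4.3.3 by limma 3.58.1 and held the replicate number as a block. The methods name a paired test, and deviations from the age means correlated at 0.50, 0.43 and 0.78 between arrays of the same number. Arrays of different number on the same slide correlated as much (0.51 and 0.47), so the pairing and the slide cannot be told apart. Where an age had no array well above background, the fold is a lower bound against the dimmest measurable signal. The adjusted p beside such a bound belongs to the fitted change, in which values at the floor have no spread of their own. RefSeq accessions named 21905 of 22464 mRNA probes (97.5%). Log2 fold changes are adult over neonatal. The fit was also run on simulated data with few changed probes and no floor, unlike these arrays, so that run checks the code and not these results. Every member was accounted for by name, and values on each array were given for probes past both thresholds, at most the 12 largest each way, and for Airn and Kcnq1ot1. Members tested with flagged spots kept, and other genes with array values, were picked after these values were seen. The members and gene lists were chosen with earlier results of these data known. The authors' annotation of changed lncRNAs was used for names and positions only. Alternatives are given in the closing section.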

Additional observations from a re-analysis of the deposited data

How the results depend on the processing

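Depth is not defined for arrays, and the precision is limited by 3 arrays per age. Signals under the dimmest spot well above background, 6.09 to 24.0 intensity units by array, gave no level. The median log2 fold change over all tested probes was -0.21, and quantile normalization moved it by -0.37, a shift to the median by -0.22 and the authors' log2 values by -0.38. No call of a member turned direction under any alternative. Kcnk9, which had no call, turned from -0.36 to 0.0805 with a floor of 5 before scaling. With arrays left out it ranged from -0.64 (without replicate 2) to 0.107 (without replicate 1). Without both the replicate block and neonatal replicate 1 it was 0.0714. The methods' t-test was run on the values of the main fit, with flagged spots left out, and not on the study's own normalized values. Before adjustment it ended the calls of Nnat NM_010923, Dcn, Ddc and Commd1, each of which had 2 complete pairs. Settings that keep outlier-flagged spots together with a second choice were chosen after seeing the data.

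Member genes that rose at least 2-fold numbered 3 in place of 5 with the normexp background correction and with the methods' t-test after Benjamini-Hochberg, and 8 with flagged spots kept and no floor. Those that fell at least 2-fold numbered 27 in place of 17 with flagged spots kept and quantile normalization, and 10 with the methods' t-test after Benjamini-Hochberg. At 5-fold, 4 genes rose in place of 2 with the authors' log2 values and with flagged spots kept, alone or with quantile normalization, normexp, no replicate block or the slide as a block, and 5 with flagged spots kept and no floor. At 5-fold, 15 genes fell in place of 9 with the authors' log2 values, 18 with flagged spots kept and quantile normalization, and 5 with the methods' t-test after Benjamini-Hochberg. Member probes called at 2-fold numbered 46 in place of 27 with the authors' log2 values, 45 with flagged spots kept (alone or with the slide as a block), 47 with no floor as well, 49 with quantile normalization, 41 with normexp, and 15 with the methods' t-test after Benjamini-Hochberg. At 5-fold they numbered 23 in place of 12 with the authors' log2 values, 20 with flagged spots kept (also with no replicate block or the slide as a block), 21 with no floor as well, 26 with quantile normalization and 22 with normexp.

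All probes called at 2-fold numbered 8885 in place of 14570 with the methods' t-test after Benjamini-Hochberg, and at 5-fold 4227 in place of 6760 with normexp. Imprint control factors that rose numbered 2 in place of 1 with a floor of 5 before scaling and with the authors' log2 values, and 0 with the methods' t-test after Benjamini-Hochberg (1 unadjusted, 1 by limma). Those that fell numbered 4 in place of 7 with that test and where all 3 arrays of an age had to be well above background. Further imprinted genes that rose numbered 4 in place of 2 with flagged spots kept and 1 without the replicate block and with the methods' t-test, before and after adjustment, and 3 in place of 7 fell with it after adjustment. The paternal median of -1.77 became -2.20 with no floor and with a floor of 5 before scaling, -2.57 with quantile normalization, -2.03 with a shift to the median, -2.52 with the authors' log2 values, -1.37 with normexp and -2.26 with flagged spots kept. The maternal median of -0.41 became -0.62 with quantile normalization, -0.87 with the authors' log2 values, -0.17 with normexp and -1.49 where all 3 arrays of an age had to be well above background.

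Fits with 1 array left out held no replicate block, while those with 1 replicate number left out at both ages kept it. With 1 array or 1 replicate number left out, and flagged spots left out or kept, member genes that rose numbered 3 to 7 at 2-fold and 2 to 4 at 5-fold, and those that fell 9 to 25 and 4 to 14. Member probes called numbered 14 to 46 at 2-fold and 7 to 22 at 5-fold, and all probes 7223 to 13980 and 3345 to 6797. Imprint control factors that rose numbered 0 to 1 and fell 2 to 7, further imprinted genes rose 0 to 1 and fell 2 to 7, the paternal median lay between -2.01 and -1.26 and the maternal between -0.63 and 0.11. Leaving out replicate 1 or 2 at both ages, or at the neonatal age alone, left 19 member genes to test in place of 31, and the member genes that fell at 2-fold numbered 9 in each of these 4 cases. Without adult replicate 1 or 2, all probes called at 2-fold numbered 9295 and 9234, and 4 imprint control factors fell in each case. Further imprinted genes that rose numbered at most 1 whichever array was left out. Without the replicate block 5 member genes rose and 17 fell at 2-fold, as with it, and all probes called numbered 14075 in place of 14570. The block changed calls of members only for probes tested with flagged spots kept, where leaving it out ended those of Gatm and of 4 Gnas probes.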
